A study of Mus musculus with 6 samples.

Results

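Nuclear-encoded respiratory chain genes were followed here in labelled and unlabelled cells of mouse hind limb muscle. They were taken as the rows whose symbol follows the naming of respiratory chain subunits (Nduf, Sdh, Uqcr, Cox and Atp5 symbols), which gave 82 of the 24062 genes in the normalised count table. The same rule found 14 of the 4939 genes in the CPM table, where CPM scales reads to a fixed library total. By complex the 82 members were 37 Nduf genes of complex I, 4 Sdh genes of complex II, 8 Uqcr genes of complex III, 16 Cox genes of complex IV and 17 Atp5 genes of complex V. The rule goes by name alone. It passes over Cox4i1 and Cyc1, which are subunits, and takes in Atp5sl, which the annotation used here lists as Dmac2 and which is known as an assembly factor of complex I. It also takes in Cox7a2l, a protein known for joining complexes into supercomplexes. By name, Ndufa4, now counted as a subunit of complex IV, and its paralogue Ndufa4l2 are listed here under complex I.

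Messenger RNA levels were measured by RNA sequencing in freshly sorted cells of adult C57BL/6 mice. Tw2pos cells were the tdTomato-positive cells of Tw2-CreERT2/+;R26-tdTO+ mice and Tw2neg cells the tdTomato-negative cells of that genotype, with 2 libraries each. Pax7pos and Pax7neg cells were the positive and negative cells of Pax7-CreERT2/+;R26-tdTO+ mice, with 1 library each. All mice carried a tamoxifen-inducible Cre, driven by Twist2 or by Pax7, and a red fluorescent reporter at the Rosa26 locus, and all received 3 tamoxifen treatments on alternate days, 10 days before the muscle was taken. The red label therefore marks cells in which that Cre was active, and their descendants. The labels do not say whether libraries of one group came from separate animals, so the p-values measure the spread between these libraries, which may be technical.

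The respiratory chain sits in the inner mitochondrial membrane. Complexes I and II pass electrons from NADH and succinate to ubiquinone, complex III passes them to cytochrome c, and complex IV passes them to oxygen. Complexes I, III and IV pump protons, and complex V, the ATP synthase, lets them flow back to make ATP. A few subunits come from the mitochondrial genome and the rest, described here, from nuclear genes. Some of the nuclear subunits have paired isoforms, one of them restricted to heart and skeletal muscle fibres.

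Depth was 10902318 and 12425426 reads for the Tw2pos libraries, against 13205751 and 13005707 for the Tw2neg libraries. Twist2 stood at 99.4 and 222 normalised counts in Tw2pos, against 22.0 and 23.2 in Tw2neg, and Pax7 at 303 CPM in Pax7pos, against 0.402 CPM in Pax7neg. The 2 sides of the Twist2 sort differed in their cell types. All 10 macrophage and monocyte markers tested were lower in Tw2pos (summed normalised counts 2402 and 3186, against 34200.1 and 38381 in Tw2neg), as were all 10 lymphocyte markers (119.8 and 235, against 7612 and 16629.6), all 10 neutrophil markers (564 and 355, against 77348 and 70135) and all 14 proliferation genes (1752 and 1340.0, against 5433 and 7386). Of 10 endothelial markers 8 were lower in Tw2pos (10621 and 9309.8, against 42666 and 16134). Of 12 fibro-adipogenic progenitor markers 8 were higher (1822050 and 2083180, against 472280 and 291190), and all 9 tenocyte markers were higher (426480 and 379065, against 76836 and 33200). Of 16 myofibre markers 7 were higher and 1 lower (900.1 and 1433, against 648 and 455). Of 12 satellite cell markers 4 were lower and 1 higher, with overlapping sums (14535 and 16123, against 17751 and 14970). All 3 red blood cell markers tested were lower (51.0 and 22.9, against 1415 and 1125). In such sorted pools, fewer cells of a type and less RNA per cell cannot be told apart, and the part of cell type in the results on respiratory chain genes was not tested.

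Few respiratory chain genes differed between labelled and unlabelled cells of the Twist2 line. Of the 82 members 75 passed the filter on low values, a mean of at least 10 normalised counts over the 4 libraries. By limma with Benjamini-Hochberg adjustment over all genes tested, 3 members were higher in Tw2pos (Ndufa4l2, Ndufb2 and Atp5j), 4 were lower (Atp5sl, Cox6a2, Cox5a and Ndufb7) and 68 did not pass an adjusted p of 0.05. That is 9.33% of the members tested, where 38.6% of the 14155 genes tested passed, 18.7% higher and 20.0% lower. The median log2 fold change was 0.05 over the members and -0.04 over all genes, and the median of its size without sign was 0.21 over the members and 0.66 over all genes. A 95% interval lying within a 2-fold change either way was found for 56 members, or 74.7%, and for 31.1% of all genes. The median standard error was 0.21 for the members and 0.27 for all genes, so the members were also measured with less spread.

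**Figure D1:**
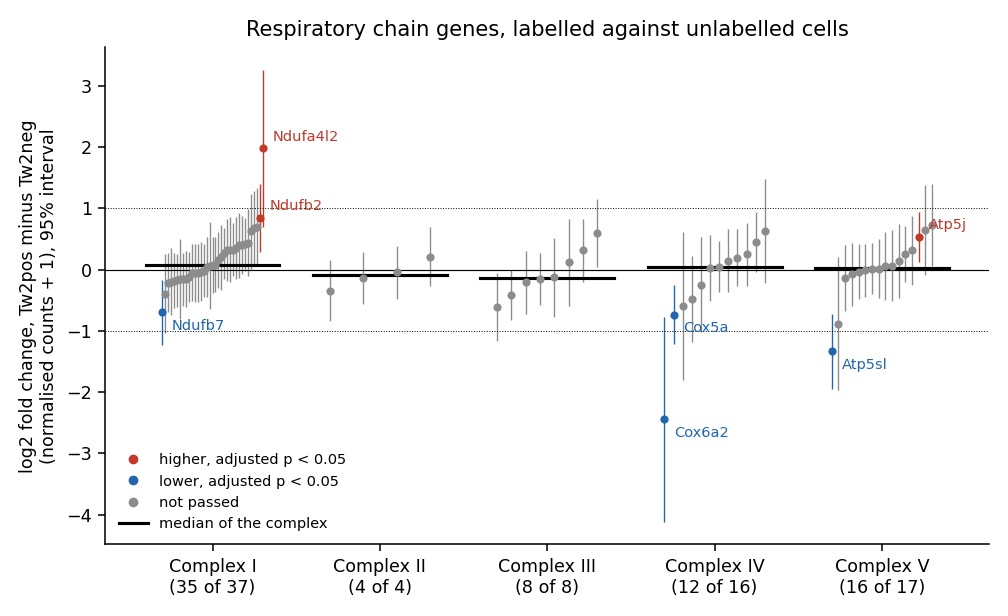
Log2 fold change of each member tested, Tw2pos minus Tw2neg on log2(normalised count + 1), with its 95% interval from limma, by complex (members tested of members found). Red and blue points passed an adjusted p of 0.05, grey points did not, black bars are medians and dotted lines mark a 2-fold change. The medians of the complexes lie between -0.14 and 0.07.

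The order of the libraries can also be counted without a model. In 28 members both Tw2pos libraries lay above both Tw2neg libraries, in 20 both lay below, and in 27 the groups overlapped. Groups kept apart in 64.0% of the members and in 76.3% of all genes tested. The count of calls depended on single libraries. Without Tw2pos replicate 1 only Atp5sl passed among the members, and without Tw2pos replicate 2 only Cox6a2. Without Tw2neg replicate 1 there were 4 members higher and 5 lower, and without Tw2neg replicate 2 there were 6 higher and 1 lower. In each of these fits the lone library was taken to vary like the other group. Scaling mattered as well. With library totals in place of the authors' size factors the median of all genes moved to -0.49, and 1 member was higher and 16 were lower. With quantile normalisation that median was 0.10, and 8 members were higher and 1 lower.

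Before the authors' scaling, the members together took a smaller share of the reads in Tw2pos. They held 0.321% and 0.310% of all reads in Tw2pos, against 0.400% and 0.475% in Tw2neg, a ratio of 0.721. The groups did not overlap, and the exact two-sided permutation p was 0.333, the smallest that 2 against 2 libraries allow. With the 10 most abundant genes of each library left out of the total the ratio was 0.826. Summed normalised counts, which use the authors' size factors, were 44574 and 46393 in Tw2pos, against 42966 and 49360 in Tw2neg, a ratio of 0.985 with overlapping groups. Over all members the mean was lower in Tw2pos on each of these scales. The size of that difference and the separation of the groups thus rest on the scaling. By complex, the ratio of read shares was 0.787 for complex I, 0.677 for complex II, 0.637 for complex III, 0.693 for complex IV and 0.713 for complex V.

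**Figure D2:**
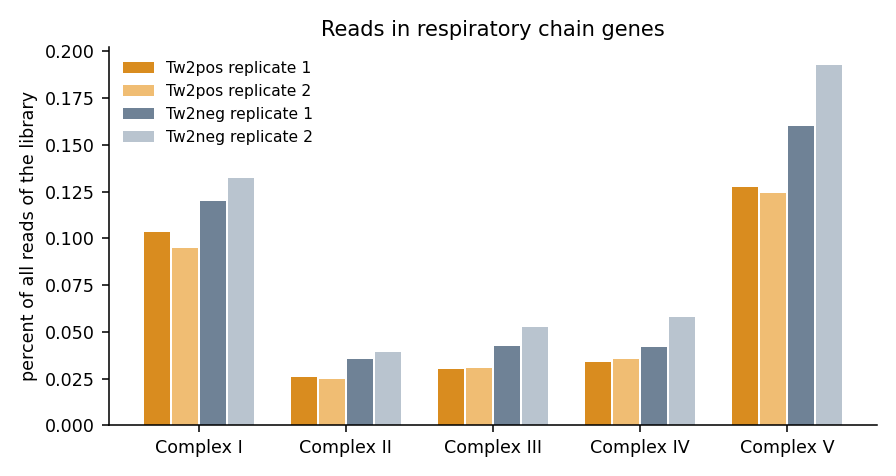
Percent of all reads of each library that fell in the members of each complex, 1 bar per library. In every complex both Tw2pos bars are below both Tw2neg bars, and complexes V and I hold the most reads.

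In complex I, which takes electrons from NADH, 35 of 37 members were tested, with 2 higher, 1 lower and a median log2 fold change of 0.07. That is 8.57% passing, where 38.6% of all genes tested did. The 2 higher were Ndufb2 and Ndufa4l2, the latter placed here by its name alone. Ndufa13 and Ndufs1 were among the members with the highest means. Ndufs1, the largest core subunit with iron-sulphur clusters, stood at 782 and 619 in Tw2pos, against 726 and 714 in Tw2neg. Ndufa13, an accessory subunit also known as GRIM-19, stood at 773 and 741 in Tw2pos, against 526 and 611 in Tw2neg. Both Tw2pos libraries lay above both Tw2neg libraries for Ndufa13, while Ndufs1 overlapped, and neither passed.

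The largest rise in the chain was that of Ndufa4l2, a paralogue of Ndufa4 known as a target of hypoxia-inducible factor that lowers complex I activity. The gene lies on chromosome 10 at 127514967 to 127517154, plus strand, in GRCm38 (GENCODE M21). It stood at 539 and 538 normalised counts in Tw2pos, against 245 and 75.2 in Tw2neg. The labelled libraries were close to each other and above both unlabelled ones, which differed among themselves. The log2 fold change was 1.98 ± 0.52 (SE; adjusted p = 0.0298, limma), or 3.94-fold on the scale of counts + 1. It was 2.82 without Tw2neg replicate 1 and 1.13 without Tw2neg replicate 2. The call was lost without either Tw2pos library (adjusted p = 0.0575 and 0.0611), with no filter (0.0621) and with no variance trend (0.0594), and held in 9 of 13 alternatives. An exon of Shmt2, an enzyme of serine metabolism, overlaps the gene on the other strand. Shmt2 stood at 499.8 and 482 in Tw2pos, against 449 and 561 in Tw2neg, with overlapping groups.

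Ndufa4, the paralogue used in most tissues and now counted as a subunit of complex IV, did not pass. It stood at 487 and 534 normalised counts in Tw2pos, against 549.7 and 600.5 in Tw2neg, or -0.17 ± 0.18 (SE) in log2 fold change. Of the reads of the pair, Ndufa4l2 held 52.5% and 50.2% in Tw2pos, against 30.8% and 11.1% in Tw2neg. The exact 95% (Clopper-Pearson) intervals of these shares run from 46.8% to 56.0% over the Tw2pos libraries and from 9.08% to 33.8% over the Tw2neg libraries. Such intervals cover counting error only, since sequencing reads without molecular identifiers are not independent molecules. The exact permutation p was 0.333, again the smallest possible.

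Ndufb2 and Ndufb7, accessory subunits of the membrane arm of complex I, moved in opposite directions. Ndufb2 (chromosome 6, 39592574 to 39603382, plus strand) stood at 213 and 233 normalised counts in Tw2pos, against 131 and 117 in Tw2neg, or 0.84 ± 0.23 (SE) in log2 fold change (adjusted p = 0.0314, limma). Ndufb7 (chromosome 8, 83566671 to 83571626, plus strand) stood at 238 and 194 in Tw2pos, against 373 and 327 in Tw2neg, or -0.70 ± 0.22 (SE) in log2 fold change (adjusted p = 0.0483, limma). Neither pair of groups overlapped. Ndufb2 kept its call in 9 of 13 alternatives, and was lost without either Tw2pos library, without Tw2neg replicate 2 and with library totals, where its log2 fold change was 0.40. Ndufb7 kept its call in 4 of 13 and was lost when any single library was left out (adjusted p = 0.0530 to 0.382). Ndufb2 shares exon sequence on the other strand with Braf, which stood at 1110.4 and 1154 in Tw2pos, against 1119.8 and 1207 in Tw2neg. The other members of complex I had log2 fold changes between -0.39 (Ndufa3) and 0.70 (Ndufc1). Ndufs5 and Ndufb4 were not tested, at no more than 1.21 and 13.6 normalised counts in any library. Of their 50-base stretches 21.7% and 18.3% also occur in transcripts of other genes, which leaves the level of such members uncertain.

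In complex II, succinate dehydrogenase, none of the 4 members passed, where 38.6% of all genes did, and the log2 fold changes ran from -0.34 (Sdhd) to 0.21 (Sdhc). Sdha, the flavoprotein that oxidises succinate, was the most abundant, at 1839.7 and 1838 normalised counts in Tw2pos, against 1966 and 2078 in Tw2neg. Sdhb, the iron-sulphur subunit, stood at 602 and 584 in Tw2pos, against 577 and 649 in Tw2neg. The membrane anchors stood apart in direction. Sdhc stood at 598 and 587 in Tw2pos, against 575 and 455 in Tw2neg. Sdhd stood at 565 and 674 in Tw2pos, against 700.2 and 878 in Tw2neg. Sdha and Sdhd were below both Tw2neg libraries, Sdhc was above both and Sdhb overlapped. All 4 intervals lay within a 2-fold change either way. With library totals Sdha (-0.59) and Sdhd (-0.79) were lower in Tw2pos (adjusted p = 0.0380 and 0.0202, limma).

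In complex III, which oxidises ubiquinol and reduces cytochrome c, none of 8 members passed, where 38.6% of all genes tested did. The median log2 fold change was -0.14. The core proteins Uqcrc2 and Uqcrc1 stood at 1119 and 1094 and at 872 and 956 normalised counts in Tw2pos, against 1158 and 1314.5 and 1232 and 1204 in Tw2neg. The hinge protein Uqcrh stood at 864 and 1043 in Tw2pos, against 821 and 1308 in Tw2neg. Uqcrc1 and Uqcrc2 lay below both Tw2neg libraries and Uqcrh overlapped. Uqcrfs1, the Rieske iron-sulphur protein, had the lowest log2 fold change of the complex, -0.61 ± 0.23 (SE; adjusted p = 0.0810, limma), from 372 and 419 in Tw2pos, against 507 and 716 in Tw2neg. The small subunit Uqcrb had the highest, 0.60 ± 0.23 (SE; adjusted p = 0.0816, limma), from 245 and 299 in Tw2pos, against 167 and 190.3 in Tw2neg. In neither did the groups overlap. Uqcrfs1 passed without Tw2neg replicate 1 (adjusted p = 0.0142) and Uqcrb with quantile normalisation (0.0416). With library totals Uqcrfs1 (-1.06), Uqcrc1 (-0.86) and Uqcrc2 (-0.61) were lower.

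In complex IV, cytochrome c oxidase, 12 of 16 members were tested and 2 were lower in Tw2pos, Cox6a2 and Cox5a. These are 16.7% of those tested, a share near that of all genes tested that were lower (20.0%). Cox6a2 is the heart and skeletal muscle isoform of subunit VIa, and Cox5a is a subunit on the matrix side, named here after its values were seen. Cox5a (chromosome 9, 57521274 to 57532426, plus strand) stood at 312 and 338 normalised counts in Tw2pos, against 487 and 600.5 in Tw2neg, or -0.73 ± 0.20 (SE) in log2 fold change (adjusted p = 0.0320, limma). The groups did not overlap, and the call held in 8 of 13 alternatives. It was lost without either Tw2pos library and without Tw2neg replicate 2, with a highest adjusted p of 0.245. The 3 members with the highest means did not pass. Cox7a2l stood at 876 and 1213 in Tw2pos, against 1138 and 1806 in Tw2neg. Cox6c, a small membrane subunit, stood at 749.6 and 883 in Tw2pos, against 532 and 667 in Tw2neg, without overlap. Cox6a1, the isoform of subunit VIa found in most tissues, stood at 715 and 695 in Tw2pos, against 652 and 709 in Tw2neg.

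Of the Cox isoforms, the muscle fibre forms had few reads on both sides of the sort. Cox6a2 (chromosome 7, 128205435 to 128206387, minus strand) stood at 1.27 and 4.82 normalised counts in Tw2pos, from 1 and 4 reads, against 14.6 and 24.0 in Tw2neg, from 18 and 30 reads. Its log2 fold change was -2.44 ± 0.69 (SE; adjusted p = 0.0353, limma) with a pseudocount of 1 and -1.16 with a pseudocount of 10, so its size rests on that choice. The call held in 7 of 12 alternatives and was lost without Tw2pos replicate 1 (adjusted p = 0.139) and without Tw2neg replicate 2 (0.112). The gene overlaps exons of Itgad on the other strand, an integrin subunit of leukocytes. Itgad had 0 reads in both Tw2pos libraries, against 12 and 20 reads in Tw2neg, and the leukocyte markers above were lower in Tw2pos too. The sources used here do not give the strand setting of the read counting, so reads of the 2 genes cannot be told apart.

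In the pairs with a muscle fibre form, the form of most tissues held nearly all reads. Cox6a2 held 0.178% and 0.690% of the reads of Cox6a2 and Cox6a1 in Tw2pos, against 2.20% and 3.27% in Tw2neg. Cox7a1 held 0.597% and 1.07% of the reads of Cox7a1 and Cox7a2 in Tw2pos, against 2.49% and 0.568% in Tw2neg. Cox8b held 0.251% and 0.680% of the reads of Cox8b and Cox8a in Tw2pos, against 0% and 0.161% in Tw2neg, where the count of 0 among 503 reads allows a share of up to 0.596%. Cox7a1 and Cox8b were left untested, at no more than 8.13 and 3.62 normalised counts in any library, and the 95% intervals of their shares overlapped between the groups. Cox7b2 and Cox8c, isoforms best known from the testis, had no reads in any of the 4 libraries, where 3 reads would be 2.40 to 3.82 normalised counts. Cox6b2, likewise known from the testis, stood at 40.8 and 47.0 in Tw2pos, against 27.6 and 28.0 in Tw2neg, and held 7.46% and 7.57% of the reads of Cox6b2 and Cox6b1 in Tw2pos, against 5.75% and 4.33% in Tw2neg. Its log2 fold change of 0.64 ± 0.35 (SE) did not pass. The partners Cox6b1, Cox7a2, Cox7b and Cox8a stood between 424.5 and 574 in Tw2pos and between 319 and 619 in Tw2neg, with log2 fold changes between 0.03 and 0.25.

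**Figure D3:**
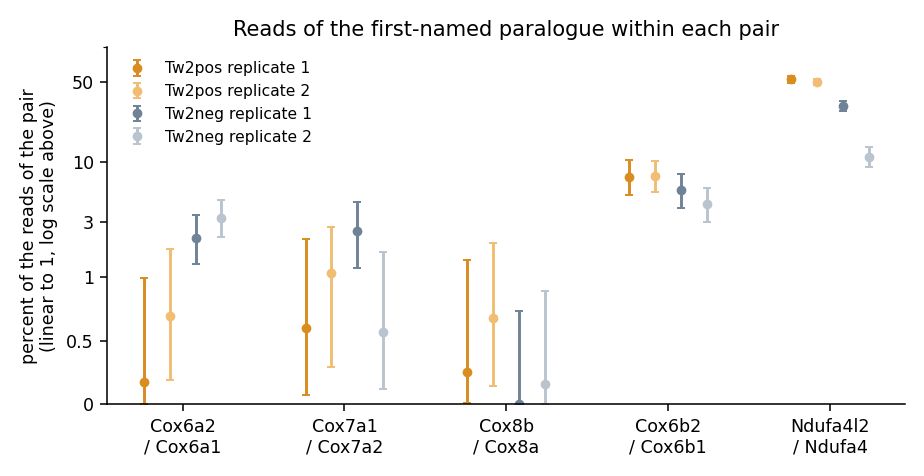
Percent of the reads of each pair that fell in the first-named gene, by library, with exact 95% intervals (counting error only). The axis is linear up to 1% and logarithmic above it. The muscle fibre forms Cox6a2, Cox7a1 and Cox8b stay at or below 3.27% in every library, while Ndufa4l2 runs from 50.2% to 52.5% in Tw2pos and from 11.1% to 30.8% in Tw2neg.

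In complex V, the ATP synthase, 16 of 17 members were tested, with 1 higher, 1 lower and a median log2 fold change of 0.04. Of the members tested 12.5% thus passed, against 38.6% of all genes tested. The catalytic core genes Atp5b and Atp5a1, for the beta and alpha subunits, had the highest normalised counts of all members. Atp5b stood at 5567 and 6088 in Tw2pos, against 6154 and 6687 in Tw2neg. Atp5a1 stood at 4296 and 4134 in Tw2pos, against 4077 and 4855 in Tw2neg. Both Tw2pos libraries lay below both Tw2neg libraries for Atp5b, while Atp5a1 overlapped, and neither passed, with log2 fold changes of -0.14 ± 0.22 and -0.08 ± 0.21 (SE). Per kilobase of exon their mean levels were 1375 and 1345 normalised counts in Tw2pos, against 1515 and 1425 in Tw2neg, also the highest of the members on that scale. Atp5j, coupling factor 6 of the peripheral stalk (chromosome 16, 84827866 to 84835625, minus strand), was higher in Tw2pos. It stood at 821 and 833 normalised counts in Tw2pos, against 585 and 554 in Tw2neg, or 0.54 ± 0.17 (SE) in log2 fold change (adjusted p = 0.0480, limma) without overlap. The call held in 6 of 13 alternatives and was lost without either Tw2pos library. With library totals the log2 fold change was 0.09. Its exons overlap those of Gabpa, a transcription factor gene on the other strand, which stood at 904 and 934 in Tw2pos, against 854 and 904 in Tw2neg.

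Atp5sl had the lowest adjusted p of the members. The gene (chromosome 7, 25619414 to 25625551, plus strand) stood at 140.2 and 125 normalised counts in Tw2pos, against 286 and 394 in Tw2neg, or -1.33 ± 0.25 (SE) in log2 fold change (adjusted p = 0.0101, limma), or 2.52-fold lower. It kept its call in 12 of 13 alternatives and lost it without Tw2pos replicate 2 (adjusted p = 0.0735). Its product serves the assembly of complex I, so no subunit of the ATP synthase was lower in Tw2pos by this test. The 3 genes for the c subunit, which encode the same mature protein, held nearly the same shares of their reads in all 4 libraries. Atp5g3 held 88.3% of the reads of the 3 genes in both Tw2pos libraries, against 90.0% and 89.8% in Tw2neg, and Atp5g1 held 11.6% and 11.4% in Tw2pos, against 9.47% and 9.46% in Tw2neg. Atp5g2 was untested, at no more than 11.2 normalised counts in any library, and 38.3% of its 50-base stretches occur in transcripts of other genes, the highest share among the members. In all, 41 members shared no such stretch and 13 shared over 10%.

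**Figure D4:**
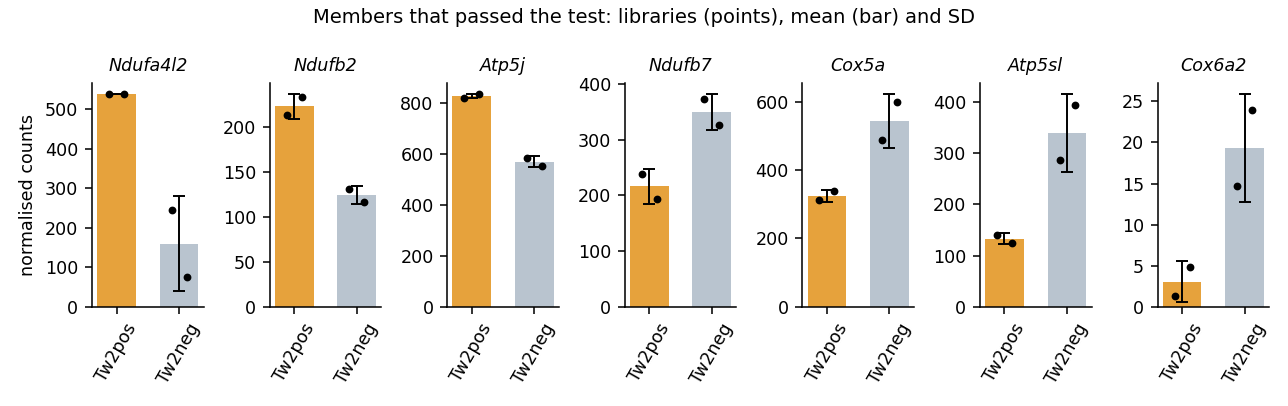
Normalised counts of the 7 members that passed an adjusted p of 0.05, in Tw2pos (left) and Tw2neg (right) of each panel. Points are libraries, bars means and whiskers SD (n = 2 each). The libraries of the groups do not overlap in any panel, and Cox6a2 lies below 25 normalised counts throughout.

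Genes that build or regulate the chain were counted from lists of their own in the same comparison. Among all genes tested 38.6% passed, 18.7% higher and 20.0% lower. Lists of 2 to 5 genes are too short to set against these shares. Of 14 complex I factors tested, Tmem186 was lower in Tw2pos (log2 fold change -1.64, adjusted p = 0.00894, limma) and 13 did not pass. Of 5 complex III factors, Uqcc2 (0.77) and Ttc19 (0.70) were higher. Of 24 complex IV factors, Surf1 was higher (0.64) and Coa4 lower (-1.98, from 5.10 and 4.82 normalised counts in Tw2pos, against 16.3 and 31.2 in Tw2neg). None of 2 complex II factors, 4 ATP synthase factors and 8 subunits outside the naming rule passed, Cox4i1 among them at 1307 and 1764.5 in Tw2pos, against 1784 and 1818 in Tw2neg. Of 14 enzymes of the TCA cycle, Dlst, part of the oxoglutarate dehydrogenase complex, was lower (-0.62).

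Of 16 regulators of mitochondrial biogenesis 3 were lower and none higher, a share near that of all genes tested (20.0% lower). Ppargc1b, a coactivator of mitochondrial genes, stood at 29.3 and 24.1 normalised counts in Tw2pos, against 90.3 and 70.4 in Tw2neg (log2 fold change -1.55, adjusted p = 0.0172, limma). Polrmt, the mitochondrial RNA polymerase, and Nrf1, a transcription factor for many respiratory chain genes, had log2 fold changes of -0.76 and -0.70 and were named after their values were seen. When either Tw2pos library was left out, all 3 lost their calls, as did Uqcc2, Ttc19, Surf1, Coa4 and Dlst, while Tmem186 lost its call without Tw2pos replicate 2 alone. Polrmt, Nrf1 and Coa4 were also lost without Tw2neg replicate 2 and with quantile normalisation. With library totals Uqcc2 (0.32), Ttc19 (0.26) and Surf1 (0.20) did not pass. By DESeq2 on recovered reads Ttc19, Surf1, Coa4, Dlst, Polrmt and Nrf1 did not pass (adjusted p = 0.0606 to 0.0731, DESeq2).

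Against the Pax7-labelled cells, respiratory chain genes in the CPM table were lower in the Twist2-labelled cells. The table holds 14 members, and by limma over its 6 libraries 9 were lower in Tw2pos than in Pax7pos, 1 was higher and 4 did not pass. Among the 4790 genes tested there, 59.6% passed, 33.9% higher and 25.7% lower. The median log2 fold change was -1.10 over the members and 0.41 over all genes. The way the table was made bears on this count. It keeps genes with at least 10 CPM in at least 3 libraries and a change of at least 2-fold from Tw2neg in at least 1 of the other 3 groups, and 12 of the 14 members are, in the authors' deposited table, at least 2-fold higher in Pax7pos than in Tw2neg. Among all table genes with that property 65.1% were lower in Tw2pos than in Pax7pos, where the members had 9 of 12. Of 66 members with at least 10 CPM in at least 3 Twist2 libraries, 53 are not in the table, and their level in the Pax7 line is not analysed here. These 53 meet the CPM part of the rule, so under it they stayed within 2-fold of Tw2neg in each of the other 3 groups. All 1964 genes that met the rule within the Twist2 libraries are in the table. The counts above thus describe members selected by size of change. Cell type markers differed between these cells too. Of the 10 satellite cell markers tested there, 9 were lower in Tw2pos (summed CPM 1164 and 1293, against 6804 in Pax7pos), as were both myofibre markers and 3 of 5 proliferation genes. All 12 fibro-adipogenic progenitor markers were higher in Tw2pos (147176 and 168305, against 6942 in Pax7pos), as were all 9 tenocyte markers (34449 and 30625.5, against 233), 7 of 10 endothelial markers (858 and 752, against 146) and 5 of 8 macrophage and monocyte markers, of which 1 was lower. Their part in the difference of respiratory chain genes was not tested. With 1 Pax7pos library, its spread was taken to be that of the Twist2 libraries, and line, animal and library cannot be told apart.

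Of the members lower in Tw2pos, the difference was largest for Cox8a, the isoform of subunit VIII found in most tissues. It stood at 40.9 and 42.7 CPM in Tw2pos, against 239 CPM in Pax7pos, or -2.49 ± 0.31 (SE) in log2 fold change (adjusted p = 0.000555, limma). Pax7pos was thus 5.72-fold above the Tw2pos mean. Uqcrfs1 stood at 30.1 and 33.8 CPM in Tw2pos, against 103 CPM in Pax7pos (log2 fold change -1.66 ± 0.34 SE, adjusted p = 0.00484, limma). Both kept their calls in all 9 alternatives, which leave out each Twist2 library in turn but never the lone Pax7pos library. Atp5b, the most abundant member, stood at 449.7 and 492 CPM in Tw2pos, against 1100.3 CPM in Pax7pos (log2 fold change -1.22). Ndufb2 stood at 17.2 and 18.8 CPM in Tw2pos, against 41.1 CPM in Pax7pos (log2 fold change -1.15).

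Other subunits of complexes III and IV were lower in Tw2pos as well. The complex III genes Uqcrh, Uqcrq and Uqcr10 had log2 fold changes of -1.37, -1.33 and -1.02. Uqcrh stood at 69.8 and 84.3 CPM in Tw2pos, against 199.5 CPM in Pax7pos. Uqcrq, a small membrane subunit, stood at 24.3 and 22.6 CPM in Tw2pos, against 60.6 CPM in Pax7pos, and Uqcr10 at 25.1 and 29.4 CPM in Tw2pos, against 56.2 CPM in Pax7pos. In complex IV, Cox7a2 stood at 34.3 and 36.1 CPM in Tw2pos, against 80.5 CPM in Pax7pos (-1.17), and Cox6a1 at 57.8 and 56.1 CPM in Tw2pos, against 119.9 CPM in Pax7pos (-1.06). Each of the 9 genes lower in Tw2pos had a higher level in Pax7pos than in any of the 4 Twist2 libraries. All 9 are deposited as at least 2-fold higher in Pax7pos than in Tw2neg, so this order largely follows from how they were picked. Ndufa7, Ndufc1 and Uqcrb were lower in both Tw2pos libraries but did not pass, with log2 fold changes of -0.85, -0.50 and -0.73. Atp5sl, at 11.3 and 10.1 CPM in Tw2pos, against 9.92 CPM in Pax7pos, did not pass either (0.10, 95% interval -0.78 to 0.99). Without Tw2pos replicate 1, 2 members were lower (Cox8a and Uqcrfs1), and without Tw2pos replicate 2, 3 were lower (Uqcrh with them). With quantile normalisation, which put the median of all genes at -0.14, 5 were lower, where 1002 of the 4790 genes tested were.

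Ndufa4l2 ran the other way. It stood at 43.6 and 43.5 CPM in Tw2pos, against 1.36 CPM in Pax7pos, where it had 13 reads. The difference was 4.24 ± 0.60 (SE) in log2 fold change (adjusted p = 0.00102, limma). On the CPM scale without a pseudocount the Tw2pos mean was 32.0-fold higher. In the unlabelled cells it stood at 19.7 and 6.01 CPM in Tw2neg, against 31.8 CPM in Pax7neg. In order of level, the Tw2pos libraries came first, followed by Pax7neg, Tw2neg replicate 1, Tw2neg replicate 2 and Pax7pos. The labelled cells were thus above the unlabelled ones in the Twist2 line and below them in the Pax7 line. The interaction of label and line was 5.69 ± 0.85 on the log2 scale (SE; adjusted p = 0.00219, limma), and it passed in all 8 alternatives, with values from 3.18 to 6.47. None of the other 13 members passed this interaction test, where 36.2% of the 4790 genes did, 23.4% above 0 and 12.8% below. Of these 13 members, Uqcrfs1, Atp5b, Uqcrq, Cox8a and Uqcrh had the most negative values, from -1.11 to -0.50. Without Tw2neg replicate 1 these 5 ran from -1.35 (Uqcrfs1) to -0.78 (Cox8a). Without Tw2neg replicate 2 they ran from -0.95 (Atp5b) to -0.17 (Uqcrh). Shmt2, which overlaps Ndufa4l2 on the other strand, had its own order, at 40.4 and 39.0 CPM in Tw2pos, 36.0 and 44.8 CPM in Tw2neg, 115 CPM in Pax7pos and 49.4 CPM in Pax7neg.

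**Figure D5:**
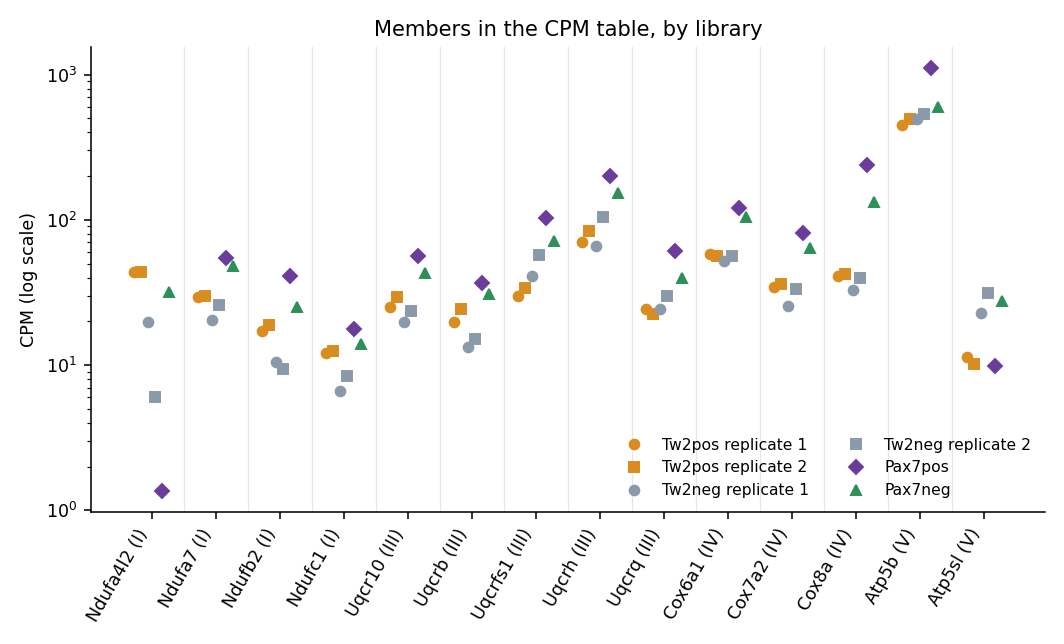
CPM of the 14 members of the CPM table in each of the 6 libraries, on a logarithmic axis, with the complex in brackets. Pax7pos (diamonds) lies above all 4 Twist2 libraries in 12 of 14 members, and Ndufa4l2 and Atp5sl are the exceptions. The same 12 are deposited as at least 2-fold higher in Pax7pos than in Tw2neg, which favours this order.

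Between the unlabelled cells of the 2 lines no member passed, though the values leaned the same way. All 14 log2 fold changes of Tw2neg against Pax7neg were negative, with a median of -0.94, against -0.07 over all genes. By limma 0 of the 14 members passed, where 0.230% of the 4790 genes did, 0.146% higher and 0.0835% lower. At an unadjusted p under 0.05 there were 9 members and 749 genes. Cox8a came closest, at 32.8 and 39.7 CPM in Tw2neg, against 132 CPM in Pax7neg (log2 fold change -1.84 ± 0.31 SE, adjusted p = 0.0738, limma). Leaving out either Tw2neg library, in a fit that the spread of the Tw2neg pair no longer enters, changed this result. Without replicate 1, 8 members and 1038 genes passed, and without replicate 2, 9 members and 855 genes. Pax7neg lay above all 4 Twist2 libraries in 12 of 14 members and in 17.5% of all table genes, and Pax7pos did so in 12 of 14 members and in 30.7% of table genes. The filter of the table bears on these counts and on the sign of the values, since 12 of the members are deposited as at least 2-fold higher in Pax7pos than in Tw2neg. It also takes in changes of Pax7neg from Tw2neg, the contrast tested here. Ndufa4l2, Uqcrb, Ndufa7, Cox8a, Ndufb2 and Cox7a2 are deposited as at least 2-fold higher in Pax7neg than in Tw2neg. The shares of all table genes are thus not a matching background. These comparisons share the Twist2 libraries, and the line cannot be told apart from the library.

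Within the Pax7 line, with 1 library a side and no test, Pax7pos was above Pax7neg in 12 of 14 members. The same 12 are deposited as at least 2-fold higher in Pax7pos than in Tw2neg, which favours this order. The share of all table genes with this order was not counted. With 10 CPM added, the median log2 difference was 0.31 over the members and -0.43 over all table genes. No member was at least 2-fold higher in Pax7pos after 10 CPM were added to both values, where 18.3% of table genes were. Ndufa4l2 was at least 2-fold lower, where 33.0% of table genes were. The nearest to a 2-fold rise were Atp5b, at 1100.3 CPM in Pax7pos, against 597 CPM in Pax7neg, and Cox8a, at 239 CPM, against 132 CPM in Pax7neg, with ratios of 1.84 and 1.81. Atp5sl stood at 9.92 CPM in Pax7pos, against 27.5 CPM in Pax7neg, so its value was below that of the unlabelled cells in both lines. Acta1 and Tnnt3, the 2 myofibre markers in the table, summed to 26.8 and 44.7 CPM in Tw2pos, 13.7 and 7.93 CPM in Tw2neg, 643 CPM in Pax7pos and 11.9 CPM in Pax7neg. Pax7pos thus had the highest sum, and Pax7neg lay between the Tw2neg libraries. Their part in the levels of respiratory chain genes was not tested.

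Some regulators of the chain also differed between the labelled cells of the 2 lines. Only 4 of the 16 listed biogenesis regulators are in the CPM table, and all 4 were lower in Tw2pos than in Pax7pos, where 25.7% of all genes tested were, and 65.1% of those deposited as at least 2-fold higher in Pax7pos than in Tw2neg. Tfam, which packages mitochondrial DNA and serves its transcription, stood at 18.7 and 17.4 CPM in Tw2pos, against 106 CPM in Pax7pos. Its log2 fold change was -2.48 (adjusted p = 0.00190, limma), and it passed in all 9 alternatives. The others were Peo1, the mitochondrial DNA helicase (-2.05), Gabpb1, a subunit of the factor GABP (-1.43), and Pprc1, a coactivator (-1.27), named after their values were seen. The subunit gene Cox4i1 was lower in Tw2pos, at 106 and 143 CPM, against 368 CPM in Pax7pos (-1.58, adjusted p = 0.00537, limma). It stood at 143 and 145 CPM in Tw2neg and at 211 CPM in Pax7neg. Cox4i1 and the 4 regulators all stood at least 2-fold higher in Pax7pos than in either Tw2neg library. The filter of the table thus favoured these calls. Among assembly factors Coa5 (1.37) and Ndufaf7 (1.12) were higher in Tw2pos and Ndufaf4 (-1.22) and Ttc19 (-0.95) lower. Cox4i1, Gabpb1 and Pprc1 lost their calls without Tw2pos replicate 1, Peo1 without Tw2pos replicate 2, and Coa5, Ndufaf7, Ndufaf4 and Ttc19 without either. These 4 factors also lost their calls with quantile normalisation (adjusted p = 0.102 for Coa5, 0.959 for Ndufaf7, 0.0851 for Ndufaf4 and 0.0648 for Ttc19, limma), where the log2 fold change of Ndufaf7 was 0.037.

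Promoter sequences were read for 69 of the 82 members, from 250 bases before to 50 bases after the start of the gene (RefSeq, GRCm38.p6). They were searched on both strands for 4 motifs of factors known to act on respiratory chain promoters, and no motif match overlapped another in the promoters printed here. The NRF1 core motif CGCATGCG was present in 8 members, or 11.6%, and in 1.91% of the promoters of 27025 genes. This core was taken, after the matches had been seen, in place of a longer form of the motif that fewer members and fewer of all promoters held. The GABP motif CCGGAAGT was in 5 members, or 7.25%, and in 4.0% of all. The YY1 motif AAGATGGC was in 10 members, or 14.5%, and in 2.88% of all. The CRE motif TGACGTCA was in 4 members, or 5.80%, and in 1.88% of all. Members with the YY1 motif were 7 of complex I and 3 of complex V. Median GC content was 57.3% in the promoters of members and 52.7% in all promoters, and the shares are not matched for it. A match is a run of letters and not a measured site.

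Of the 9 members lower in Tw2pos than in Pax7pos, 4 that held such a motif are printed below, 5′ to 3′ on the strand of the gene. They were chosen after their values were seen. Uqcrh also holds the GABP motif, beginning 11 bases before the start, and is not printed. Uqcr10, Cox7a2 and Atp5b hold none of the motifs, and no promoter was read for Uqcrq. Capitals mark the motif on either strand. Cox8a (chr19:7217567-7217866, minus strand) holds the GABP motif at 2 places, in the reverse direction, beginning 6 bases before the start and again at base 32, counted from the start as base 1. Cox6a1 (chr5:115348909-115349208, minus strand) holds the NRF1 motif, beginning 161 bases before the start. Uqcrfs1 (chr13:30545267-30545566, minus strand) and Ndufb2 (chr6:39592315-39592614, plus strand) hold the CRE motif, beginning 29 and 14 bases before the start.
Cox8a: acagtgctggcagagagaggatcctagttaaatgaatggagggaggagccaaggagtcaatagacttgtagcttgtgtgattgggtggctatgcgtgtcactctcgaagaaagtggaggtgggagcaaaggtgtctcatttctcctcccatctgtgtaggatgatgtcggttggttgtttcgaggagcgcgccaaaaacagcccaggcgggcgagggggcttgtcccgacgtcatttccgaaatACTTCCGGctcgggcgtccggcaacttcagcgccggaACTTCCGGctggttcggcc
Cox6a1: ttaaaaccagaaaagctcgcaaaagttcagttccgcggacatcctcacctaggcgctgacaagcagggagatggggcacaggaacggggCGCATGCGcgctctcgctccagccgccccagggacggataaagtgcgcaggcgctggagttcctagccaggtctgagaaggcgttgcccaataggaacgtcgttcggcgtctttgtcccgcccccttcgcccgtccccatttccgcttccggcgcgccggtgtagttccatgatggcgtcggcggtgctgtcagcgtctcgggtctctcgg
Uqcrfs1: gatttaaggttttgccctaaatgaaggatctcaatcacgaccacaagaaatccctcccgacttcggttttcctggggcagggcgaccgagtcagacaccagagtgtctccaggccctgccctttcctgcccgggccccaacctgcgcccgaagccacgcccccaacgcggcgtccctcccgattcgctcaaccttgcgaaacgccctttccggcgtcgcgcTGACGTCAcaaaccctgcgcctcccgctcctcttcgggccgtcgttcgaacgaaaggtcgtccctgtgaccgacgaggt
Ndufb2: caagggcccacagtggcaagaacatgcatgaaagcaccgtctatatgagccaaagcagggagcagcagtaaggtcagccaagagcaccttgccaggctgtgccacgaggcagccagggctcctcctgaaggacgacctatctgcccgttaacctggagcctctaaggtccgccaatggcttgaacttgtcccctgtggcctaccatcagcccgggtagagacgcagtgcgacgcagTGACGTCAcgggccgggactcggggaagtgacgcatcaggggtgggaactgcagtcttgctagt
The 4 genes belong to complexes IV, III and I. Their log2 fold changes of Tw2pos against Pax7pos were -2.49, -1.06, -1.66 and -1.15 in the order printed. No binding was measured in these libraries, and nothing about a factor follows from these letters.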

How the data were processed

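RNA sequencing libraries of sorted muscle cells were aligned with TopHat2 2.0.0 to GRCm38 (mm10) and normalised with DESeq2 1.6.3, per the submitters' processing notes. The sources used here do not name the read counter, its annotation or its strand setting. The first deposited table holds normalised counts, a signal per gene on which the authors had divided reads by size factors, for the 4 Twist2 libraries. In each of these, 100% of values were whole multiples of 1 read within 0.01 of a read, so reads were recovered. The second deposited table holds CPM of 4939 genes for the Pax7 libraries, the authors' mean CPM for the Twist2 groups and log2 fold changes from Tw2neg. CPM per Twist2 library was rebuilt from the first table, and its group means matched the deposited means. Reads were recovered from the CPM of Pax7pos but could not be taken as whole reads in Pax7neg.

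Members and gene lists were chosen with earlier results of these data known. Tests used limma 3.58.1 (R 4.3.3) with a mean-variance trend on log2(normalised count + 1) or log2(CPM + 1), on genes whose mean was 10 or more, with Benjamini-Hochberg adjustment over all genes tested. The first table was fitted on 4 libraries and the second on 6 libraries in 4 groups, which share 1 estimate of the spread. Alternatives were edgeR 4.0.16 and DESeq2 1.42.0 on recovered reads, other pseudocounts, filters, scalings, and each Twist2 library left out. The limma fit of the first table, and the contrast of Tw2pos and Pax7pos in the second, were tested on simulated data. Named with values are, in each complex, the 3 members with the highest mean, the passing members with the largest rise and fall, all Sdh genes, the isoform pairs and the members of the CPM table, and in each pathway list the passing genes with the largest rise and fall. One gene that this rule names is not reported here. Other names were added after values were seen. Positions and exon lengths come from GENCODE M21, and promoters from RefSeq. Shared sequence is the percent of a gene's 50-base stretches found in transcripts of other genes. Reads of such genes, and of the 25 members with exons overlapping a gene on the other strand, may be misassigned. Genes encoded by mitochondrial DNA were not analysed here.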

Additional observations from a re-analysis of the deposited data

Results flagged for a closer look

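Ndufa4l2 was picked out because the difference of labelled and unlabelled cells was not the same in the 2 lines. The interaction on the log2(CPM + 1) scale was 5.69 ± 0.85 (SE; adjusted p = 0.00219, limma over 6 libraries). It rests on 43.6 and 43.5 CPM in Tw2pos and 19.7 and 6.01 CPM in Tw2neg, and on 1.36 CPM in Pax7pos and 31.8 CPM in Pax7neg, 1 library each.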

How the results depend on the processing

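In Tw2pos against Tw2neg, 3 members were higher and 4 lower. The counts were 1 higher and 16 lower with library totals, 8 and 1 with quantile normalisation, and 1 and 2 with no filter. They were 1 and 2 with no variance trend and 2 and 2 with DESeq2, where Ndufb7, Cox6a2 and Atp5j lost their calls. Of all genes tested, 48.5%, 39.2%, 25.8%, 32.9% and 37.4% passed in these settings, in that order. Leaving out 1 library gave 0 to 6 higher, 1 to 5 lower and 2578 to 7370 genes called, where the full fit called 5470. On recovered reads edgeR called 5342 genes and DESeq2 5296, and edgeR called 2812 genes of Tw2pos against Pax7pos. With the replicate number as a block, 4 members were higher, 5 lower and 6627 genes called. The libraries share only a number, and deviations of same-numbered libraries correlated at 0.263 over 14155 genes, so this block is no pairing by design. The Pax7 groups share no 2 numbers with the others, so no paired analysis was possible there.

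Library totals lowered all genes nearly alike (median -0.49, against -0.04), so members with small positive values turned negative. Among members named with values these were 11, none of which had passed: Ndufa13 (-0.034), Cox6a1 (-0.40), Atp5g3 (-0.44), Sdhc (-0.24), Cox6b1 (-0.42), Cox7a2 (-0.20), Cox7b (-0.30), Cox8a (-0.25), Atp5g1 (-0.13), Ndufa7 (-0.10) and Uqcr10 (-0.13). Among the same members quantile normalisation reversed Ndufs1 (0.024) and Sdhb (0.042). Some left-out libraries turned the sign of members that had not passed, whose log2 fold changes then ran over -0.0088 to 0.11 for Cox6a1, -0.045 to 0.069 for Atp5g3, -0.20 to 0.25 for Cox6b1, -0.048 to 0.34 for Cox7b, -0.13 to 0.040 for Sdhb, -0.46 to 0.21 for Uqcrh, -0.20 to 0.048 for Atp5a1, -0.22 to 0.12 for Ndufs1.

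Against Pax7pos, 9 members were lower with 2853 genes called, and 5 were lower with 1862 genes under quantile normalisation. Leaving out 1 Twist2 library gave 2 to 11 lower and 1635 to 3738 genes. Tw2neg against Pax7neg had 11 genes called, with 3 under no filter, 1 under no variance trend, 1 with a pseudocount of 10, 2 under quantile normalisation, and 43 to 1038 genes and 0 to 9 members lower with 1 library left out. The interaction had 1736 genes, with 963 under quantile normalisation, and 935 to 3106 genes and 0 to 5 members lower with 1 library left out. Quantile normalisation reversed Atp5sl against Pax7pos (-0.68), Atp5b in Tw2neg against Pax7neg (0.23), and the interactions of Cox6a1 (0.050), Atp5sl (-0.64) and Cox7a2 (0.067). A pseudocount of 10 reversed the interaction of Ndufb2 (-0.047), and a pseudocount of 1 put 2 members at least 2-fold lower in Pax7pos than in Pax7neg, where 10 gave 1. With 1 library left out, signs also turned for Tw2neg against Pax7neg in Atp5sl (-0.25 to 0.19), and for the interaction in Atp5sl (-0.090 to 0.35), Cox7a2 (-0.27 to 0.11), Uqcr10 (-0.19 to 0.051). The ratio of read shares was 0.721, and 0.826 without the 10 most abundant genes. Causes were not tested. The edgeR alternatives that need Pax7neg reads were not run, and DESeq2 was run on the first table.

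Depth limits the rare isoforms, since 3 reads equal 2.40 to 3.82 normalised counts, and 1 library a side limits every value of the Pax7 line.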
